A study of Mus musculus with 384 samples.

Results

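Expression of 10 genes that make, release or bind Wnt proteins was measured in single mouse pluripotent stem cells. The genes were taken by symbol: the ligands Wnt3, Wnt3a, Wnt8a, Wnt9a, Wnt7b and Wnt4, the secreted antagonists Dkk1, Sfrp1 and Sfrp2, and Porcn, which prepares ligands for secretion. All 10 were found among the 31617 genes of the count table. Single cells were sorted into wells and sequenced with Smart-seq2, a method that copies full-length mRNA. FS cells and EpiSCs were compared, all in N2B27, a serum-free base medium. Formative stem (FS) cells, the lines 5ar1 and 5ar2, grew in AloXR (A3XR in the labels), which adds a low dose of activin, XAV939 and BMS493. Epiblast-derived stem cells (EpiSCs) were the line AFX6 in AFX, which holds activin, Fgf2 and XAV939, and the line AF32 in AF, which holds activin and Fgf2 without XAV939. The labels name no genetic change in any line. XAV939 blocks tankyrase and so stabilises Axin, and BMS493 holds retinoic acid receptors inactive. There were 96 cells of each line. Each EpiSC medium is represented by 1 line, so line and medium cannot be told apart, and AF32 was the only line without XAV939.

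Wnt proteins are secreted signals that carry a lipid, which the acyltransferase Porcn adds and without which the carrier Wls cannot take them to the cell surface. They bind Frizzled receptors and the co-receptors Lrp5 and Lrp6, which stops the Axin complex from degrading beta-catenin, and beta-catenin then switches on targets with Tcf and Lef factors. Sfrp proteins bind Wnt ligands outside the cell, whereas Dkk1 binds the co-receptors. In the mouse embryo Wnt3 is needed in the posterior epiblast and visceral endoderm for gastrulation, and Dkk1 limits Wnt signals on the anterior side.

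Cells with at least 3000000 counts were kept, which left 90 cells for each FS line, 66 for AFX6 and 80 for AF32, 326 of 384 in all, with totals from 3022666 to 6686007. Levels are given as CPM, counts per 1000000 counts, of the counts summed over a line or of 1 cell. A cell is called positive for a gene at 5 CPM, which is 15 counts in the shallowest cell allowed. Reads of 4 Y-linked genes gave a scale for stray reads, if AFX6 is taken from these same counts to lack the Y chromosome. In AFX6 63 of 66 cells had such a count. No cell reached 5 CPM of their sum (0 of 66, where a count of 0 allows up to 3 cells, 4.55%) and the highest cell had 1.73 CPM, whereas the other lines averaged 153 to 254 CPM per cell. Pou5f1, the core pluripotency factor, was positive in 97.5% to 98.9% of cells of every line, and Otx2, a marker of post-implantation epiblast, in 76.3% to 98.9%. All 3 of Pou5f1, Sox2 and Nanog reached 5 CPM in the summed counts of 5ar1, 5ar2 and AF32, but only 2 in AFX6. Of the 4 epiblast markers Otx2, Pou3f1, Fgf5 and Dnmt3b, 3 did so in AFX6 and 4 in each other line. These 4 summed to 2712, 1917, 646 and 779 CPM in 5ar1, 5ar2, AFX6 and AF32. The naive markers Klf4 and Esrrb were positive in at most 5.56% of cells. With Tfcp2l1, the 3 matched naive markers summed to 2.63, 2.79, 3.68 and 0.627 CPM in 5ar1, 5ar2, AFX6 and AF32. Summed levels of 3 neural markers were 6.93 to 10.1 CPM across lines, those of 3 fibroblast markers 6.62 to 40.7 CPM with 5ar2 highest, and Sox17, the endoderm marker matched, was at most 0.606 CPM. The ligands and Dkk1 held by 4 of the 6 cells under 5 CPM of Pou5f1 are given with each gene.

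The ligands and Dkk1 were found in few cells of any line, whereas Sfrp1 and Sfrp2 were found in most cells of at least 3 lines. At least 1 of the 6 ligands was present in 17 of 90 5ar1 cells (18.9%, exact 95% interval 11.4 to 28.5) and 16 of 90 5ar2 cells (17.8%, 10.5 to 27.3). Among EpiSCs it was 22 of 66 AFX6 cells (33.3%, 22.2 to 46.0) and 26 of 80 AF32 cells (32.5%, 22.4 to 43.9). Both EpiSC lines thus lay above both FS lines, with intervals that overlap. These intervals and those that follow are Clopper-Pearson intervals that cover counting error only, since several reads can stem from 1 molecule and no identifiers mark them. Over the 17 matched Wnt genes of the mouse the shares were 34.4%, 40.0%, 42.4% and 46.3% in the same order, and no cell held more than 4 of them.

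**Figure D1:**
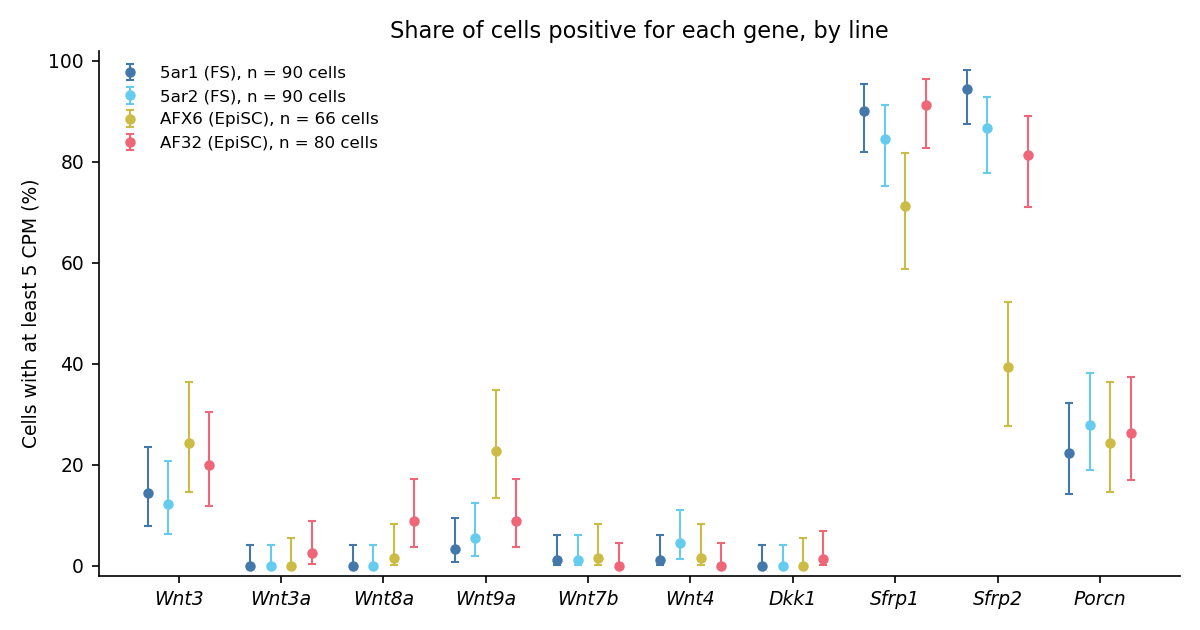
Share of cells with at least 5 CPM (vertical axis, percent) of each of the 10 genes (horizontal axis) in the 4 lines, with exact 95% intervals as bars. Sfrp1 and Sfrp2 lie above 70% in every line except Sfrp2 in AFX6 at 39.4%, and the ligands, Dkk1 and Porcn lie below 30%.

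Wnt3, the ligand required for gastrulation, had the most positive cells of the 6 ligands in each line. Its level was 6.43 CPM in 5ar1, 4.17 CPM in 5ar2, 17.8 CPM in AFX6 and 14.1 CPM in AF32. Both FS lines lay below both EpiSC lines, with means of 5.30 ± 1.60 CPM (SD, n = 2 lines) and 16.0 ± 2.58 CPM (SD, n = 2). The positive cells numbered 13 of 90 (14.4%, 7.92 to 23.4), 11 of 90 (12.2%, 6.26 to 20.8), 16 of 66 (24.2%, 14.5 to 36.4) and 16 of 80 (20.0%, 11.9 to 30.4), so the median cell was at 0 in every line and the intervals of the shares overlap. The median positive cell held 31.0 CPM for 5ar1, 37.9 CPM for 5ar2, 40.7 CPM for AFX6 and 69.3 CPM for AF32. A single AFX6 cell with 537.7 CPM held 44.6% of the counts of that line, which was at 10.0 CPM without it and still above both FS lines. A Pou5f1-low AF32 cell held 86.6 CPM of Wnt3, and without the Pou5f1-low cells AF32 was at 13.3 CPM.

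Wnt9a, a ligand of the Wnt9 subfamily, was highest in AFX6. It was at 0.815 CPM in 5ar1, 1.02 CPM in 5ar2, 17.5 CPM in AFX6 and 4.52 CPM in AF32, with means of 0.916 ± 0.143 CPM in the FS lines and 11.0 ± 9.16 CPM in the EpiSC lines (SD, n = 2 each). The positive cells were 3 of 90 (3.33%), 5 of 90 (5.56%), 15 of 66 (22.7%, 13.3 to 34.7) and 7 of 80 (8.75%, 3.59 to 17.2). Both EpiSC lines lay above both FS lines, and AF32 held 0.259 times the level of AFX6 (0.244 to 0.273, the exact interval of a ratio of summed counts, counting error only). Wnt9a was thus lower in the EpiSC line without XAV939 than in the line with it, by a margin that has 1 line on each side. The highest AF32 cell, at 86.8 CPM with 27.4% of the counts of the line, was the same Pou5f1-low cell that held Wnt3, and without Pou5f1-low cells AF32 was at 3.38 CPM, still above both FS lines.

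In AFX6, Wnt3 and Wnt9a were often found in the same cells. Of its 16 Wnt3-positive cells 9 were positive for Wnt9a (56.3%, 29.9 to 80.2), against 6 of its 50 other cells (12.0%, 4.53 to 24.3). The counterparts were 3 of 16 against 4 of 64 in AF32, 1 of 13 against 2 of 77 in 5ar1 and 3 of 11 against 2 of 79 in 5ar2. The share was thus the higher one among Wnt3-positive cells in all 4 lines, on few cells outside AFX6. Cells of a line share its culture and plates, so these are counts without a test. The AFX6 cell with the most Wnt3 also held 77.3 CPM of Wnt9a and was the only Wnt7b-positive cell of that line. Median detected genes were 10744.5 in Wnt3-positive and 10226.5 in other AFX6 cells, and the part of this in the joint detection was not tested.

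Wnt3, Wnt3a and Wnt9a lie on chromosome 11. Wnt3a and Wnt9a are neighbours that are read away from each other, with 16175 bases between their starts, yet the first was found in 2 cells of the series and the second in 30. The 250 bases before the RefSeq start of each are shown because Wnt3 and Wnt9a had higher levels in both EpiSC lines and Wnt3a, beside Wnt9a, was found in AF32 alone. Capitals mark CG dinucleotides. On GRCm38.p6 the windows are chr11:103773925-103774174 on the plus strand for Wnt3, chr11:59306680-59306929 on the plus strand for Wnt9a and chr11:59290752-59291001 on the minus strand for Wnt3a.
Wnt3: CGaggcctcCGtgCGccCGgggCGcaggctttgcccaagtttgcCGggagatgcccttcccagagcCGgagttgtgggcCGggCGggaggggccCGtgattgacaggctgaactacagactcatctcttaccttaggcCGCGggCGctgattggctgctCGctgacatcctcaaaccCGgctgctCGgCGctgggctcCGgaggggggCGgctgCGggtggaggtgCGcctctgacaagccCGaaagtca
Wnt9a: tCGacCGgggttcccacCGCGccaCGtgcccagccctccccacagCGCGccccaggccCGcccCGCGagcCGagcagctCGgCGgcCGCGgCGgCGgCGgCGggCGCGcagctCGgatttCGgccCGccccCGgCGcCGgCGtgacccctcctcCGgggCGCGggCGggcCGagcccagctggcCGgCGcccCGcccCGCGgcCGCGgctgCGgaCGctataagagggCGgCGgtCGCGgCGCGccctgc
Wnt3a: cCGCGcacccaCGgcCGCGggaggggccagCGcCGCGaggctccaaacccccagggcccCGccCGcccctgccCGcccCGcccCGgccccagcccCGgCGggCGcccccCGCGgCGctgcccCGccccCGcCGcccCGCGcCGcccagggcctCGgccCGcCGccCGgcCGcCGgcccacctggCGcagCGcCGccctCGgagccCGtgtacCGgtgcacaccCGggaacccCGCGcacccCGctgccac
The windows hold 22, 48 and 41 CG dinucleotides, against a median of 6 over 32851 RefSeq windows of the same length, and as many or more were in 14.8%, 0.186% and 1.09% of all windows. RefSeq windows were matched for 6 of the 10 genes, which did not include Wnt8a, Wnt7b, Sfrp1 and Porcn. The Tcf and Lef motif forms CTTTGAT and CTTTGTT, searched on both strands, were in 8.06% of all windows and in 1 of the 6, that of Dkk1, as a single match. A match describes letters and is no evidence of a bound site.

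Wnt8a, a ligand of the early posterior epiblast, was mainly found in AF32. It had 0 counts in 5ar1, 0.0345 CPM in 5ar2, 0.262 CPM in AFX6 and 3.21 CPM in AF32. The positive cells were 0 of 90 in each FS line (a count of 0 allows up to 3 cells, 3.33%, and the exact interval ends at 4.02%), 1 of 66 in AFX6 and 7 of 80 in AF32 (8.75%, 3.59 to 17.2). The AF32 cells held 19.8 to 48.5 CPM with a median of 29.8, and 2 of the 7 also held Wnt3. AF32 exceeded AFX6 by 12.3-fold (9.85 to 15.4, counting error only). The AFX6 side of this ratio is 87 counts, of which 86 were in 1 cell, so the interval is too narrow. The single AFX6 cell had 15.8 CPM, beside 42.0 CPM of Wnt3 and 63.2 CPM of Wnt9a.

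Wnt3a, which acts in the streak and tail bud to keep mesoderm forming, had no counts in any of the 3 lines with XAV939. In AF32 it was at 1.92 CPM from 682 counts, nearly all in 2 of 80 cells (2.5%, 0.304 to 8.74) at 95.6 and 57.2 CPM. The first of these cells also held 69.9 CPM of Wnt1 and 78.5 CPM of Foxa2, a factor of the anterior streak and endoderm, and the second 55.8 CPM of Wnt11 and 15.4 CPM of Wnt9a. Both kept Pou5f1, at 208 and 326 CPM, and neither had a count of T, the streak factor Brachyury.

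Wnt4 and Wnt7b, ligands known mostly from later organs, were not detected in AF32 (0 of 80 cells each; 3 cells are 3.75%, and the exact interval ends at 4.51%). Wnt4 was at 0.0441 CPM in 5ar1, 1.63 CPM in 5ar2 and 0.123 CPM in AFX6. Its 4 positive 5ar2 cells held 67.2, 39.4, 16.1 and 13.0 CPM, and 1 cell each of 5ar1 and AFX6 held 5.12 and 8.63 CPM. Wnt7b was at 1.74 CPM in 5ar1, 0.409 CPM in 5ar2 and 0.821 CPM in AFX6, with 1 positive cell in each at 231.9, 37.5 and 52.0 CPM. The highest Wnt4 cell of 5ar2 and the Wnt7b cell of 5ar1 were both under 5 CPM of Pou5f1. Of the 6 such cells 3 held Wnt3a, Wnt8a, Wnt7b, Wnt4 or Dkk1, against 17 of the 320 other cells, and the part of Pou5f1-low cells in these levels was not tested. The antisense gene AU022754 overlaps Wnt7b, and without a stated strand setting its reads cannot be told apart from those of Wnt7b.

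**Figure D2:**
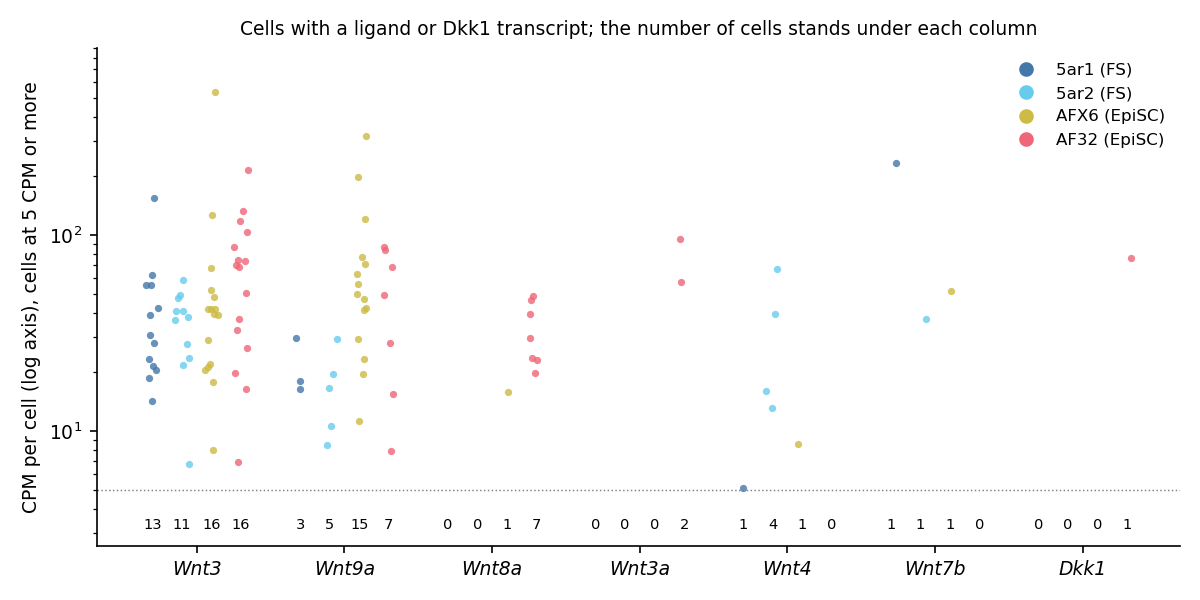
CPM per cell (vertical log axis) of every cell at 5 CPM or more of the 6 ligands and Dkk1 (horizontal axis), coloured by line, with the number of such cells under each column. Wnt3 is found in 11 to 16 cells of every line, Wnt9a in 15 cells of AFX6, and Wnt3a and Dkk1 only in AF32, in 2 cells and 1 cell.

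Many AF32 cells, and some cells of other lines, had raised expression over whole chromosomes that hold these genes. The chromosome's mean relative level was divided by that of the median autosome, and a ratio above 1.2 was called raised. Chromosome 11 was raised in 66 of 80 AF32 cells, 9 of 66 AFX6 cells, 11 of 90 5ar1 cells and no 5ar2 cell. Wnt3 was at 13.8 CPM in the raised AF32 cells, of which 13 were positive, and at 15.6 CPM in the other 14, of which 3 were positive. All 7 Wnt9a-positive AF32 cells were among the raised ones (5.43 against 0.0166 CPM), as were both Wnt3a cells. In AFX6 Wnt3 stood at 70.6 CPM in the 9 raised cells, which include its highest cell, and at 9.35 CPM in the others, whereas Wnt9a was at 19.9 and 17.1 CPM. The part of the raised chromosome in these levels was not tested.

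Porcn, the acyltransferase every Wnt ligand here depends on, was at 9.43 CPM in 5ar1, 9.24 CPM in 5ar2, 18.9 CPM in AFX6 and 18.9 CPM in AF32. The 2 FS lines were close to each other (9.33 ± 0.131 CPM, SD, n = 2), as were the 2 EpiSC lines (18.9 ± 0.0595 CPM, SD, n = 2), and the groups did not overlap. The share of positive cells did not follow the level: it was 22.2% for 5ar1, 27.8% for 5ar2, 24.2% for AFX6 and 26.3% for AF32. The higher level in EpiSC lines lay in the positive cells, whose medians were 35.2, 30.7, 78.7 and 56.0 CPM. Porcn is on the X chromosome, at chrX:8193848-8206525 on GRCm38. AFX6 differed from the other lines in having almost no Y-linked reads, and the part of the sex chromosomes in the Porcn levels was not tested.

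Wls, the carrier that takes lipid-bearing Wnt proteins to the surface, was more widely found than Porcn. It was at 50.6 CPM in 5ar1, 49.5 CPM in 5ar2, 48.7 CPM in AFX6 and 106.8 CPM in AF32, which is 2.19 times as much in AF32 as in AFX6, the lowest line. The Porcn-positive share was similar in cells with and without a Wnt ligand. In AF32 9 of 37 cells with any of the 17 Wnt genes were Porcn-positive (24.3%, 11.8 to 41.2), against 12 of 43 cells without (27.9%, 15.3 to 43.7). The other lines had 6 of 31 against 14 of 59 in 5ar1, 9 of 36 against 16 of 54 in 5ar2 and 6 of 28 against 10 of 38 in AFX6. The share was slightly lower with a ligand in each line, but the intervals overlap widely in all of them. Both Porcn and Wls were detected in 5, 8, 4 and 8 of the cells with a Wnt ligand in 5ar1, 5ar2, AFX6 and AF32. A gene at this level can be missed in a cell, so a negative cell is one in which the transcript was not detectable.

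Sfrp1, a secreted protein that binds Wnt ligands, was the most abundant of the 10 genes per length in AF32 and stood higher there than in the lines with XAV939. Its level was 84.2 CPM in 5ar1, 77.1 CPM in 5ar2, 75.4 CPM in AFX6 and 389.6 CPM in AF32. The lines with XAV939 were close together (78.9 ± 4.68 CPM, SD, n = 3), and AF32 was 5.16 times AFX6 (5.09 to 5.23), 4.62 times 5ar1 and 5.06 times 5ar2. Of the 5050 genes with at least 50 CPM in a line, 27.4% were highest in AF32, and 11 (0.218%) had a larger ratio of AF32 to the highest other line. Per kilobase of exon its level was 19.3, 17.6, 17.3 and 89.1 CPM in the same order of lines. The gene lies at chr8:23411502-23449632 on the plus strand of GRCm38.

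The difference in Sfrp1 was one of level per cell more than of the share of cells. The median cell had 65.8 CPM in 5ar1 (quartiles 32.2 and 109), 68.4 CPM in 5ar2 (29.4 and 108), 51.6 CPM in AFX6 (1.36 and 111) and 275.1 CPM in AF32 (106 and 554), and the highest AF32 cell reached 1974 CPM. The lower quartile of AF32 thus lay close to the upper quartiles of the other lines. The positive shares were 90.0% and 84.4% of the FS cells 5ar1 and 5ar2, 71.2% of AFX6 cells (58.7 to 81.7) and 91.3% of AF32 cells (82.8 to 96.4). The lowest share was that of AFX6. Positive cells had the higher median of detected genes in every line: 11388 against 10904 in 5ar1, 11607.5 against 11209 in 5ar2, 10580 against 9900 in AFX6 and 10354 against 9891 in AF32. The part of this in the shares was not tested.

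**Figure D3:**
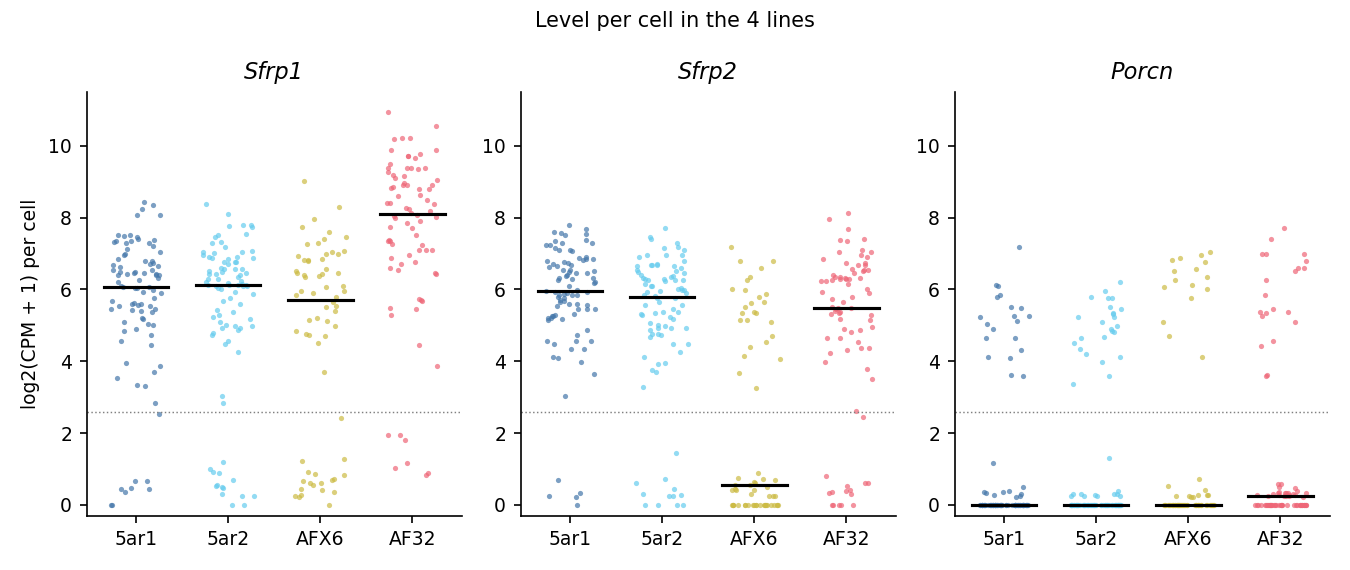
Level per cell as log2(CPM + 1) (vertical axis) of Sfrp1, Sfrp2 and Porcn in the 4 lines (horizontal axis), with 1 point per cell, a bar at the median and a dotted line at 5 CPM. For Sfrp1 the AF32 median (275.1 CPM) lies above the others, for Sfrp2 the AFX6 median (0.470 CPM) lies near 0, and for Porcn every median lies near 0.

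Chromosome 8, which holds Sfrp1, was raised in 41 of 80 AF32 cells and in no cell of the other lines. Sfrp1 was at 437.0 CPM in those cells and at 339.7 CPM in the 39 others, with medians of 309 and 253 CPM. Both the summed level and the median of the AF32 cells without a raised chromosome were higher than those of each line with XAV939. Single cells overlapped, and the part of chromosome 8 in the Sfrp1 level was not tested. All 7 AF32 cells under 5 CPM of Sfrp1 were among the raised cells, and the 39 others were all positive.

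**Figure D4:**
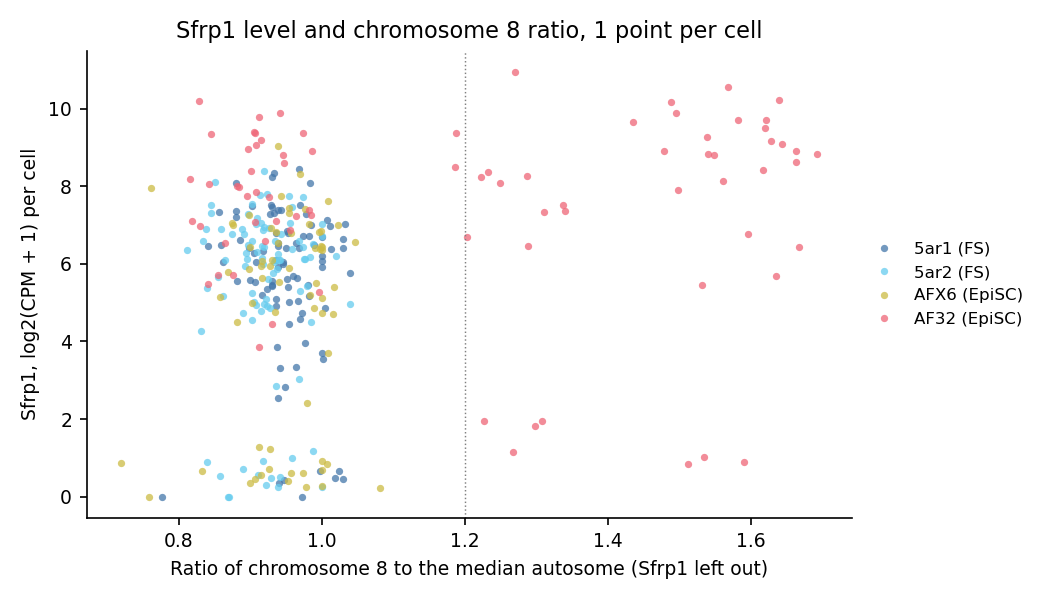
Sfrp1 level per cell as log2(CPM + 1) (vertical axis) against the ratio of chromosome 8 to the median autosome without Sfrp1 (horizontal axis), coloured by line, with a dotted line at 1.2. The 39 AF32 cells left of the line overlap the cells of the other lines but reach higher (median 253 CPM, against 51.6 to 68.4 CPM), and no cell of another line is right of it.

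Sfrp2, a close relative of Sfrp1, had another pattern, with AFX6 as the low line. It was at 76.4 CPM in 5ar1, 58.5 CPM in 5ar2, 22.1 CPM in AFX6 and 62.3 CPM in AF32. The positive shares were 94.4% (87.5 to 98.2), 86.7% (77.9 to 92.9), 39.4% (27.6 to 52.2) and 81.3% (71.0 to 89.1), and the interval of AFX6 overlaps none of the others. The median cell had 60.8, 54.7, 0.470 and 44.0 CPM. AF32 held 2.82 times the level of AFX6 (2.75 to 2.90) and lay between the 2 FS lines. The positive AFX6 cells had a median of 10644.5 detected genes and the others 10226.5. The other lines had the same direction, at 11397 against 11100 in 5ar1, 11614.5 against 10983 in 5ar2 and 10332 against 10291 in AF32. The part of this in the shares was not tested. The antisense gene Gm26771, with 1619 counts in the kept cells, overlaps Sfrp2, and their reads cannot be told apart without strand.

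Sfrp1 and Sfrp2 were found together in 77 of 90 5ar1 cells, 66 of 90 5ar2 cells, 24 of 66 AFX6 cells and 60 of 80 AF32 cells. Neither was found in 1, 2, 17 and 2 cells, so AFX6 was the line in which cells without both were frequent (25.8%, 15.8 to 38.0). Of the AFX6 cells 23 had Sfrp1 without Sfrp2 and 2 had the reverse. Most cells with a Wnt ligand also held at least 1 of these antagonists: 31 of 31 and 35 of 36 such cells in the FS lines 5ar1 and 5ar2, 24 of 28 in AFX6, and 36 of 37 in AF32. Over all cells, with or without a ligand, 1.11%, 2.22%, 25.8% and 2.5% held neither in the same order, so most cells of each line held at least 1 anyway.

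Dkk1, which blocks the Lrp5 and Lrp6 co-receptors and is itself a Wnt target in many tissues, was nearly absent. It had 0 counts in 5ar1, 1 count each in 5ar2 and AFX6, and 446 counts in AF32 (1.25 CPM), of which 445 were in a single cell at 76.5 CPM. That cell also held 2369 CPM of T, 25.4 CPM of Foxa2, 107 CPM of Sfrp1 and 41.2 CPM of Sfrp2, with 1.89 CPM of Pou5f1. It was 1 of 2 T-positive cells of AF32 and held 99.1% of the T counts of the line. Foxa2 was positive in 16.3% of AF32 cells and in at most 1.11% of cells of any other line, whereas Eomes, another streak gene, was at 61.3, 48.2, 6.62 and 5.84 CPM in 5ar1, 5ar2, AFX6 and AF32. The 5 primitive streak markers summed to 61.5, 52.0, 7.88 and 54.6 CPM, but AF32 was at 15.7 CPM without that 1 cell, whose T made up most of its sum, with Mixl1 and Gsc under 5 CPM in every line, and the part of streak-like cells in the AF32 ligand levels was not tested.

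Lines, not cells, are the replicates, so counts summed per line were tested over all genes with edgeR's quasi-likelihood test, which called a gene at a Benjamini-Hochberg adjusted p under 0.05 and a log2 difference over 1.4. Between FS cells and EpiSCs 0 of 22606 genes were called in either direction (0% each), and so 0 of the 8 members tested, since Wnt3a and Dkk1 did not pass the filter on low counts. At an unadjusted p under 0.05 the test had 3636 genes (16.1%), DESeq2 called 717 genes higher and 737 lower in FS cells (3.17% and 3.26%), and limma called 0. The members with an unadjusted p under 0.05 were 3 of 8, all lower in FS cells. Wnt3 differed by -1.60 on the log2 scale (SE 0.40, adjusted p = 0.194 by edgeR), Wnt9a by -3.61 (SE 0.86, adjusted p = 0.190) and Porcn by -1.02 (SE 0.27, adjusted p = 0.201). Wnt9a was at -2.29 without AFX6 and -4.29 without AF32, while Wnt3 stayed between -1.97 and -1.33 and Porcn between -1.06 and -1.01 with each line left out. DESeq2 called 3 of 8 lower: Wnt3 (adjusted p = 0.00306), Wnt9a (adjusted p = 0.000145) and Wnt8a (adjusted p = 0.0176). By edgeR Wnt8a differed by -6.60, and by -3.92 without AF32, which held nearly all of its counts. The median log2 difference was -1.27 over the 8 members and -0.01 over all genes. Sfrp1 differed by -1.52 (SE 0.79, adjusted p = 0.464 by edgeR) and by 0.06 without AF32, so AF32 decided its value. Sfrp2 differed by 0.68 (SE 0.54, adjusted p = 0.656 by edgeR), 1.58 without AF32 and 0.13 without AFX6.

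Between AF32 and the 3 lines with XAV939 edgeR called 0 of 26264 genes in either direction (0% each), with 1726 (6.57%) at an unadjusted p under 0.05. DESeq2 called 263 higher and 1176 lower in AF32 (1% and 4.48%), and limma called 0. AF32 stands alone in this fit and is assumed to vary like the other lines. Of the 10 members edgeR called 0, with Sfrp1 at 2.29 on the log2 scale (SE 0.22, unadjusted p = 0.000396, adjusted p = 0.731), against a median of -0.21 over all genes. DESeq2 called Sfrp1 (adjusted p = 8.52e-08), Wnt3a (adjusted p = 0.000508) and Dkk1 (adjusted p = 0.00209) higher, and Wnt7b (adjusted p = 0.00099) and Wnt4 (adjusted p = 0.0278) lower, of which all but Sfrp1 rest on 1 to 4 positive cells per line. Wnt3a and Dkk1 passed the filter on low counts here only through AF32, so the direction of their calls was fixed in advance. Wnt7b and Wnt4 had no counts in AF32 and passed it only through lines with XAV939, so the direction of their calls was fixed too. Wnt3 differed by 0.55, Wnt9a by -0.56, Sfrp2 by 0.24 and Porcn by 0.57, with adjusted p from 0.799 to 0.959 by edgeR. Wnt8a differed by 4.98 (SE 2.5 by edgeR) and was called by neither edgeR nor DESeq2. Wnt9a turned to 2.29 without AFX6 and Sfrp2 to -0.13, so AFX6 decided the direction of these 2 genes. Wnt3 was at 1.402 without AFX6, 0.32 without 5ar1 and 0.19 without 5ar2, and Porcn at 1.01, 0.40 and 0.39 without the same lines. Sfrp1 stayed between 2.26 and 2.33 with any of the 3 lines left out.

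Beyond the 10 genes, 57 matched genes of the pathway were followed in 6 lists: other ligands, lipid handling, other antagonists, receptors, R-spondins with their receptors, and direct targets. By edgeR 0 of the 51 tested genes were called between FS cells and EpiSCs and 0 of 57 between AF32 and the other lines. At an unadjusted p under 0.05 there were 7 higher and 5 lower of 51 in FS cells (13.7% and 9.8%, against 9.06% and 7.02% of all genes). In AF32 there were 8 higher and 2 lower of 57 (14% and 3.51%, against 3.27% and 3.3% of all genes). The AF32 genes were 1 higher of 11 other ligands, 2 higher of 3 for lipid handling, 1 higher and 1 lower of 14 antagonists, 1 lower of 16 receptors, 1 higher of 7 R-spondins and receptors, and 3 higher of 6 direct targets, T among them, whose AF32 level was 39.1 CPM with the Dkk1 cell and 0.357 CPM without it. DESeq2 called 5 higher and 2 lower in the first comparison (9.8% and 3.92%, against 3.17% and 3.26% of all genes) and 6 higher and 5 lower in the second (10.5% and 8.77%, against 1% and 4.48%), T again among the higher ones. The lower ones in AF32 by DESeq2 were Wnt10a, Wnt2, Rspo2, Dkk3 and Fzd4, at log2 differences from -21.6 to -7.02. Dkk3 and Fzd4 were also the lower ones by edgeR. Genes nearly without counts in AF32 pass the filter on low counts through the other lines, so these lower calls carry no information on direction. The median log2 difference of the lists was -0.08 and 0.15, against -0.01 and -0.21 over all genes.

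Among other ligands, Wnt1 had 0 counts in 5ar1, at most 0.007 CPM in 5ar2 and AFX6 and 9.59 CPM in AF32, of which 72.6% came from 1 of 3 positive cells. Like Wnt3a and Dkk1, it entered the AF32 comparison only through AF32, so its direction there was fixed in advance. Wnt5b, a ligand of the non-canonical branch, was at 3.29, 3.49, 5.45 and 3.74 CPM in 5ar1, 5ar2, AFX6 and AF32, a ratio of 1.65 between the highest and the lowest line. Among antagonists, Sfrp4 was at 7.19, 11.2, 18.9 and 52.7 CPM in the same order, Kremen1, a Dkk1 partner, at 8.16, 5.11, 19.6 and 12.8 CPM, and Draxin at 3.42, 1.87, 0.499 and 5.11 CPM. Sfrp4 was thus, like Sfrp1, highest in AF32, and DESeq2 called it lower in FS cells (adjusted p = 0.0118) and higher in AF32 (adjusted p = 0.0471), although edgeR did not (adjusted p = 0.240 and 0.736).

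Of the receptors, Fzd10 was at 3.86, 0.287, 1.45 and 19.6 CPM in 5ar1, 5ar2, AFX6 and AF32 and was positive in 35.0% of AF32 cells against at most 4.55% elsewhere. Fzd5 ran the other way, at 4.83, 2.09, 6.05 and 0.798 CPM. Ror1, a receptor for Wnt5a, was lowest in AFX6 (6.78, 9.19, 1.34 and 6.25 CPM). R-spondins prolong Wnt signals by removing the ubiquitin ligases that clear Frizzled receptors. Rspo3 was at 4.38, 2.92, 2.62 and 21.1 CPM, with 40.0% positive cells in AF32, and Rspo1 at 7.13, 3.89, 0.743 and 1.72 CPM. Lgr4, an R-spondin receptor, was at 32.7, 37.1, 80.4 and 100.2 CPM, so that both EpiSC lines lay above both FS lines.

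Direct targets of beta-catenin differed among themselves. Nkd1, a feedback inhibitor, was at 9.19, 7.24, 10.2 and 46.4 CPM in 5ar1, 5ar2, AFX6 and AF32, and Tcf7 at 17.3, 11.2, 18.4 and 42.2 CPM. Both were highest in AF32, where DESeq2 called Nkd1 (adjusted p = 9.88e-05) and not Tcf7 (adjusted p = 0.0980), and edgeR called neither (adjusted p = 0.731 and 0.738). T, at 0.144, 0.179, 0.382 and 39.1 CPM, had 99.1% of its AF32 counts in the Pou5f1-low Dkk1 cell. Nkd1 lies on chromosome 8 as Sfrp1 does. Axin2 and Lef1 were added after their values were seen: Axin2, the usual reporter of the pathway, was at 2.697, 1.05, 2.68 and 2.54 CPM with AF32 inside the range of the other lines, and Lef1 was higher in the FS lines (45.5 and 33.5 CPM) than in AFX6 and AF32 (13.4 and 14.2 CPM).

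**Figure D5:**
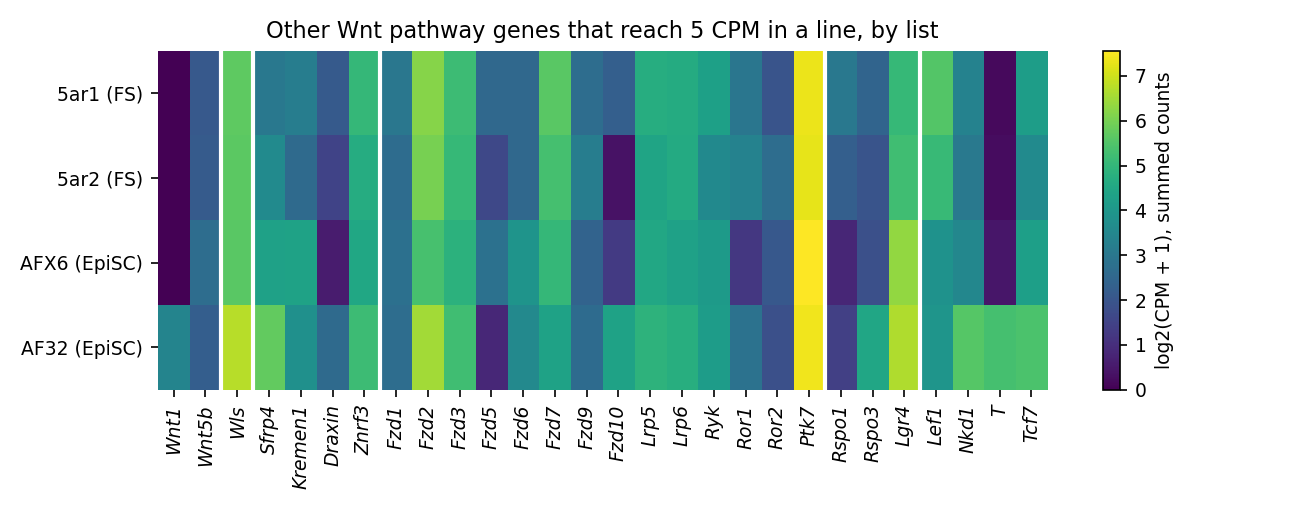
Level as log2(CPM + 1) of summed counts (colour) of the 28 other pathway genes that reach 5 CPM in a line (horizontal axis, grouped by list with white lines between lists) in the 4 lines (vertical axis). AF32 stands out as brighter for Wnt1, Sfrp4, Fzd10, Rspo3, Nkd1 and T, and as darker for Fzd5.

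For members found in at least 20 cells of a line, genes with the most similar pattern over cells were sought by Spearman's rho of log2(CPM + 1), in the line with the highest share of positive cells. For Sfrp1 in 80 AF32 cells these were Fads2 (0.570), Pja1 (0.527) and Ddah2 (0.496), of 10239 genes whose 99th percentile was 0.326. For Sfrp2 in 90 cells of 5ar1 they were Tlk1 (0.438), Map7d2 (0.411) and Ddx25 (0.403), against 0.279. For Porcn in 90 cells of 5ar2 they were Ttll1 (0.413), AC115117.1 (0.373) and Cnpy2 (0.353), against 0.258. The lists share no gene, which carries no information, since each holds only the top-ranked genes of a different member in a different line. Genes picked as the most similar of so many lie above the 99th percentile by selection alone. The cells of each line share plates and depth range, and the rho of each member with the number of detected genes was -0.0043, -0.0782 and -0.130.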

How the data were processed

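Single cells of 4 lines were sequenced with Smart-seq2 in paired reads, and 326 of 384 cells with at least 3000000 counts were used. The authors deposited raw counts per gene and cell, made with STAR 2.7.3a and featureCounts 2.0.0 on GRCm38.p6 per the labels. A second deposited table, of sctransform scores, was not used. Counts were summed per line (Python 3.11.15, pandas 2.3.3, scipy 1.17.1), and the sums went into edgeR 4.0.16 without covariates (quasi-likelihood fit in R 4.3.3, TMM scaling, genes filtered by filterByExpr). DESeq2 1.42.0 and limma 3.58.1 on log2(mean CPM + 1) were alternatives, beside other normalization, filters, depth and CPM thresholds, thinning, and each line left out in turn. The edgeR fit was checked on simulated counts with less spread between lines than these data, so the check does not measure power at their spread. Chromosome ratios were built on protein-coding genes averaging 20 CPM or more, each relative to its mean over cells. Promoter windows came from RefSeq. Lines were the replicates: p-values measure the spread between lines, and the EpiSC lines differ in medium.

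All 10 members were named, with, from each list, the 3 genes with the largest ratio between lines among those at 5 CPM or more in a line, and the 3 genes most like each broadly found member. The members and lists were chosen with earlier results of these data known. The setting that keeps only Pou5f1-positive cells and the one that leaves out the Dkk1 cell of AF32 were added after the data were seen. List genes without a row in the table were not analysed here.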

Additional observations from a re-analysis of the deposited data

How the results depend on the processing

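No paired analysis was possible because wells share only a number and each line is a single sum. Both comparisons had 0 called genes under every setting of edgeR and limma that was run, including each of the 4 lines left out in the first and each of the 3 lines with XAV939 in the second (0 to 0). With the smallest adjusted p at 0.190 and 0.731 in so few lines, this says nothing about stability. DESeq2 called 1454 genes between FS cells and EpiSCs and 1439 between AF32 and the lines with XAV939. Of the log2 differences of the members under the alternatives, 173 kept direction and side of the threshold, 8 became calls, all with DESeq2, and 7 reversed. Between FS cells and EpiSCs the reversed values were Wnt7b at -1.11 in cells with at least 4000000 counts, Wnt7b without 5ar1 (range -0.054 to 11.8 with each line left out), Wnt4 without 5ar2 (-0.52 to 11.4) and Sfrp1 without AF32 (-2.26 to 0.062). For AF32 they were Wnt9a at 0.38 by limma, Wnt9a without AFX6 (-1.08 to 2.29) and Sfrp2 without AFX6 (-0.13 to 0.62). Of 40 shares of positive cells, 5 moved at 20 CPM, 2 at 4000000 counts, 2 without Pou5f1-low cells, 1 each at 1 CPM, at both thinned depths, over all sorted cells and without cells of few detected genes, and of 36 shares 4 moved in cells whose chromosome was not raised. The share of Sfrp1-positive cells moved to 56.3% in AFX6 over all sorted cells, and in AF32 to 97.5% at 1 CPM and 100% in cells whose chromosome 8 was not raised, and that of Sfrp2 in 5ar1 to 86.7% at 20 CPM. The Wnt7b cell of 5ar1 was lost at the higher depth threshold, without cells of few detected genes and without Pou5f1-low cells, and the Dkk1 cell of AF32 without Pou5f1-low cells. No positive cell was left for Wnt3a, Wnt9a and Dkk1 in AF32 where the chromosome was not raised (0%), nor for Wnt4 of 5ar1 at 20 CPM, 4000000 counts or either thinned depth. Genes found in 1 to 4 cells of a line are limited by the number of cells, and the cause of the changes was otherwise not tested.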
